A study of Mus musculus with 4 samples.

Results

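Cathepsins are the proteases of lysosomes and endosomes, and the 10 described here are the rows of the gene table for Ctse, Ctsd, Ctsa, Ctsb, Ctsc, Ctsh, Ctsk, Ctsl, Ctss and Ctsz, out of 23284 genes. The members were selected on the Srf KO against WT values of these same data, so each such value of theirs is a description and carries no test. Messenger RNA was sequenced from mature neutrophils sorted out of mouse bone marrow by high Gr1, high 7/4 and high side scatter. There were 2 samples from Srf KO mice and 2 from WT mice, and Srf encodes serum response factor, a transcription factor of actin and immediate-early genes. The sources used here do not give how Srf was deleted, in which cells, on which strain or at what age, nor whether each sample came from 1 mouse. The authors deposited 1 pooled value per genotype, in FPKM (sequenced fragments scaled to transcript length and to library size). Neither the depth of a sample nor the spread between samples can therefore be given.

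Cathepsins differ in the residue that cuts the peptide bond. Cathepsins E and D use a pair of aspartates, cathepsin A uses a serine, and cathepsins B, C, H, K, L, S and Z use a cysteine. All are made as inactive precursors, are sorted to acidic compartments and become active there. In neutrophils, cathepsin C has a further known task, since it trims the precursors of the granule serine proteases.

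The coding sequences around the active sites are shown because they are what sets the classes apart. Each line holds 45 bases of the GENCODE M21 annotation of GRCm38, the assembly of mm10, read 5′ to 3′ on the coding strand. Capitals mark the aspartate-threonine-glycine codons of the aspartic enzymes, the codons around the catalytic serine of cathepsin A, and in the cysteine enzymes a run that holds the catalytic cysteine codon just before its last codon.
Ctse, first site: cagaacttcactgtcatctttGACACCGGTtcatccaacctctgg
Ctsd, first site: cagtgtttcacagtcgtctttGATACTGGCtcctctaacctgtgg
Ctse, second site: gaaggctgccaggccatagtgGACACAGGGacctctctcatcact
Ctsd, second site: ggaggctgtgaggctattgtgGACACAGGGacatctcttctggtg
Ctsa: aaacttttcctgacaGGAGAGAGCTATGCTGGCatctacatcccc
Ctss: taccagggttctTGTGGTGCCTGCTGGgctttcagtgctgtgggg
Ctsc: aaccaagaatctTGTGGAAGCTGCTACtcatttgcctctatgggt

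The Ctse sites lie on the plus strand in exon 4 at chr1:131663350-131663394 and in exon 8 at chr1:131672238-131672282, with the aspartates at residues 97 and 282 of 397. Those of Ctsd lie on the minus strand in exon 3 at chr7:142383458-142383502 and in exon 7 at chr7:142377092-142377136, at residues 97 and 293 of 410. Over their whole length the cathepsin E and D proteins were identical at 48.9% of the residues of the shorter one. The Ctsa site is in exon 6 at chr2:164835222-164835266, at residue 173 of the 474-residue form. The stretches of Ctss and Ctsc each span an intron, between exons 4 and 5 within chr3:95543157-95545371 and between exons 5 and 6 within chr7:88302294-88308050. Among the 7 cysteine members the 21 pairs of proteins were identical at 24.8% to 56.2% of residues, and the closest pair was cathepsin K with cathepsin S.

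The targeted gene, Srf, had 0.439 FPKM in Srf KO neutrophils, against 13.7 FPKM in WT neutrophils, which is 3.19% of the WT level. Neutrophil markers were abundant in both genotypes, with Retnlg at 17117 FPKM in Srf KO and 24805 FPKM in WT. S100a8, S100a9, Ltf, Ngp and Camp drew too many reads for the authors' software to test, so a 0 listed for them is not a level. Of the 12634 genes tested in the authors' deposited table, 35.5% were called different between the genotypes, meaning an adjusted p of at most 0.05. Genes called lower in Srf KO made up 17.8% and genes called higher 17.7%. That test had 2 samples per genotype, and the spread between them may be technical. The sources used here do not give how the test estimated spread. With sorted bulk samples, fewer cells of a type and less RNA per cell cannot be told apart.

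All 10 cathepsin genes had enough reads to be tested by the authors. Both aspartic genes were called lower in Srf KO, 2 of the 7 cysteine genes, Ctsc and Ctss, were called higher, and the other 6 members were not called. The median log2 fold of the 10 members, Srf KO over WT, was 0.08, and that of all tested genes was 0.08 as well, with quartiles of -0.40 and 0.54. The members' median mixes classes that differ, with a median of -2.59 for the aspartic pair and 0.42 for the cysteine genes, and it became -0.19 when folds were adjusted for transcript length.

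**Figure D1:**
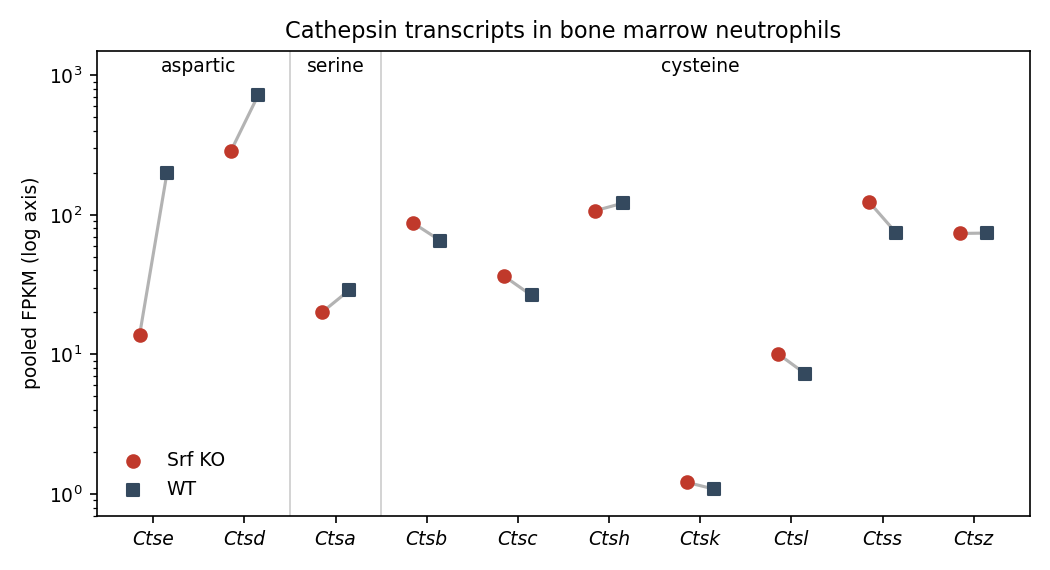
Pooled level of each cathepsin gene, in FPKM on a log axis, in Srf KO (circles) and WT (squares) neutrophils, grouped by catalytic class. The line between the circle and the square is longest for Ctse, at 13.8 FPKM in Srf KO and 199 FPKM in WT; there is 1 value per genotype, so no error is drawn.

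Ctse, the gene of the endosomal aspartic protease cathepsin E, had the largest difference in the family. Its pooled level was 13.8 FPKM in Srf KO neutrophils, against 199 FPKM in WT neutrophils, a level 14.4-fold lower in Srf KO. The authors' deposited table gave a log2 fold of -3.85, with an implied standard error of 0.19, which is the fold divided by the authors' test statistic. Of the 12552 tested genes with a fold, 0.0637% had a lower one, which describes where the gene stood on the contrast that chose it. Among tested genes ordered from the highest level down, Ctse stood at place 4033 in Srf KO and at place 378 in WT. The gene lies at chr1:131638314-131675507 in the deposited table (mm10), and no other gene of the table shares that locus.

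Ctse had a single isoform row, a single transcription start site (TSS) group row and a single coding sequence row. All of these gave 13.8 FPKM in Srf KO and 199 FPKM in WT, the same as the gene row. The deposited tables therefore hold no second Ctse transcript or start whose level could have moved apart from the first.

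The genes whose pair of levels lay nearest to that of Ctse were ranked among 10495 tested genes at 1 FPKM or more in either genotype, by the distance between the log2 levels. Nearest was Il1rn, the interleukin-1 receptor antagonist, with 13.4 FPKM in Srf KO and 117 FPKM in WT, at a distance of 0.776. Dhrs9, a short-chain dehydrogenase, followed with 11.3 FPKM in Srf KO and 98.9 FPKM in WT, at a distance of 1.05. Amica1, an adhesion molecule of leukocytes, came next with 23.7 FPKM in Srf KO and 121 FPKM in WT, at a distance of 1.06. The likeness rests on 1 pooled value in each of the 2 genotypes.

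Ctsd encodes cathepsin D, the main aspartic protease of lysosomes, and was the most abundant member in both genotypes. Its level was 286 FPKM in Srf KO neutrophils, against 719 FPKM in WT neutrophils, 2.52-fold lower in Srf KO. Its log2 fold in the authors' deposited table was -1.33, with an implied standard error of 0.19. Of all tested genes with a fold, 3.60% had a lower one, again on the contrast that chose the members. Ctsd lies at chr7:142375916-142387870, and GENCODE M21 places another gene model, Gm49369, over 6757 bases of it on the same strand, so some of its reads could belong to either.

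The aspartic pair differed in size of change. The log2 fold of Ctse minus that of Ctsd was -2.52, with a combined implied standard error of 0.27. That error takes both folds as independent, although they come from the same samples, and it is a description and no test. Ctse made up 4.61% of the summed FPKM of the pair in Srf KO and 21.7% in WT. For each FPKM of Ctse there were 20.7 FPKM of Ctsd in Srf KO and 3.60 FPKM of Ctsd in WT. In absolute terms the order was the opposite, since Ctsd fell by 433 FPKM and Ctse fell by 186 FPKM.

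The stretch before the start of Ctsd is shown because it holds a pair of CACGTG E-box motifs, the hexamer within the motif that TFEB and its relatives, regulators of lysosomal genes, are known to bind. The sequence is the RefSeq one for GRCm38.p6, chr7:142387828-142388077 on the minus strand, and capitals mark the motifs. The RefSeq start lies inside the gene as the deposited table and GENCODE M21 (end at 142388038) draw it, so part of the stretch falls within the gene by either of these.
Ctsd, 250 bases before the RefSeq start: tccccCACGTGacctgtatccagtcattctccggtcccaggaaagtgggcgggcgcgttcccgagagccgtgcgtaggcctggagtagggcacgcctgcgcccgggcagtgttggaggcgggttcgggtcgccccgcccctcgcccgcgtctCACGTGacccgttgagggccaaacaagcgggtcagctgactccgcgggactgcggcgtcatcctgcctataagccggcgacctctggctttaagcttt

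RefSeq windows, 250 bases before to 50 after a start, were at hand for 7 of the 10 members, in 8 windows, with none for Ctse, Ctsb or Ctsh. CACGTG, which reads the same on both strands, was found in 3 windows, those of Ctsd and Ctsl and the later window of Ctsa. The earlier window of Ctsa has 0 matches, its later window has 2, as that of Ctsd does, and that of Ctsl has 1. Among 32851 windows of all genes, 7.15% hold the motif. The CArG box, the motif bound by serum response factor, was found on either strand in 0 of the 8 windows, and 1.63% of all windows hold it. These matches describe letters in a short window and say nothing of whether a factor binds.

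**Figure D2:**
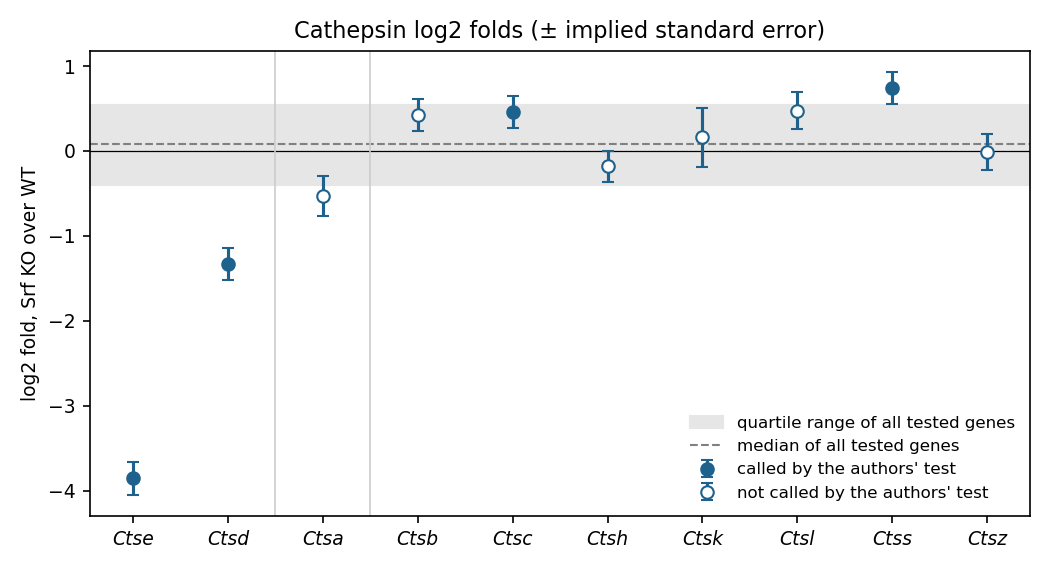
Log2 fold of each cathepsin gene, Srf KO over WT, from the authors' deposited table, with bars of 1 implied standard error; filled points were called by the authors' test and open points were not. The band spans the quartiles of all tested genes (-0.40 to 0.54) and the dashed line their median; Ctse at -3.85, Ctsd at -1.33 and Ctsa at -0.53 lie below the band and Ctss at 0.74 above it.

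Ctsa encodes cathepsin A, a serine carboxypeptidase that also shields β-galactosidase and neuraminidase 1 in lysosomes. The gene as a whole had 20.0 FPKM in Srf KO and 28.9 FPKM in WT. Its log2 fold in the authors' deposited table was -0.53, with an implied standard error of 0.24 and an adjusted p of 0.0652, and it was not called. Of its partners, Neu1 had 22.4 FPKM in Srf KO and 28.6 FPKM in WT, and Glb1 had 7.58 FPKM in Srf KO and 5.39 FPKM in WT, and neither was called.

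Ctsa was the one member with more than 1 isoform row, and its 2 transcripts share a TSS group. The longer transcript had 2.38 FPKM in Srf KO and 9.57 FPKM in WT, 4.02-fold lower in Srf KO, and was called lower in the authors' deposited table (log2 fold -2.01, implied standard error 0.63), where 14% of tested isoform rows were called lower. The shorter transcript had 17.6 FPKM in Srf KO and 19.3 FPKM in WT and was not called (log2 fold -0.13, implied standard error 0.22). The longer form was therefore 11.9% of Ctsa in Srf KO and 33.1% in WT.

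In GENCODE M21 the longer transcript has an extra exon at chr2:164833724-164833850, 127 bases of which 54 are coding, so its protein has 492 residues where the shorter has 474. It also runs on for 1013 bases at its 3′ end, at chr2:164840020-164841032, all of them within Pltp, a lipid transfer protein gene on the other strand. The library kit does not keep the strand, so reads there cannot be told apart between the genes. Pltp itself had 2.34 FPKM in Srf KO and 0.956 FPKM in WT and was not called. Whether it had a part in the isoform values was not tested.

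**Figure D3:**
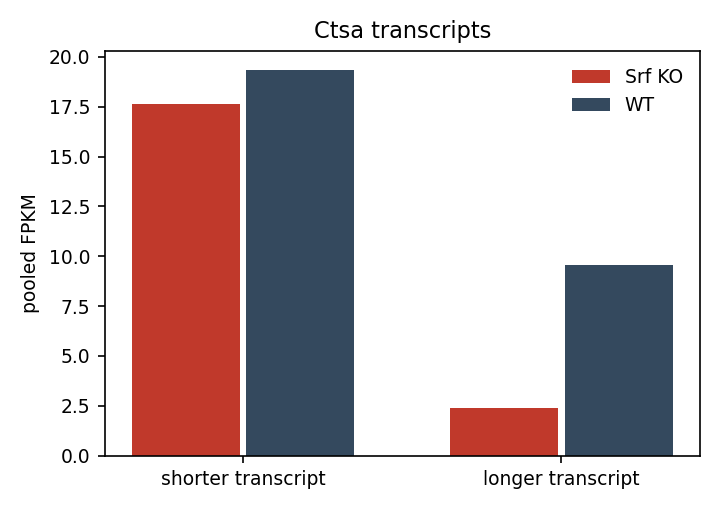
Pooled FPKM of the shorter and the longer Ctsa transcript in Srf KO and WT neutrophils, 1 value per genotype. The longer transcript stands at 2.38 FPKM in Srf KO and 9.57 FPKM in WT, and the shorter at 17.6 FPKM in Srf KO and 19.3 FPKM in WT.

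The cysteine cathepsins did not follow the aspartic pair. Their log2 folds ran from -0.18 to 0.74 with a median of 0.42. Of the 7 genes, 0 were called lower, 2 were called higher and 5 were not called. Over all tested genes, 17.8% were called lower and 17.7% higher, so counts in 7 genes do not set the class apart from other genes. Their summed level was 441 FPKM in Srf KO and 370 FPKM in WT. The summed level of the aspartic pair was 299 FPKM in Srf KO and 918 FPKM in WT, 3.07-fold lower in Srf KO.

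Ctss, for cathepsin S, which trims the invariant chain of MHC class II in antigen-presenting cells, had the highest fold of the members described here. It had 124 FPKM in Srf KO neutrophils, against 74.3 FPKM in WT neutrophils, 1.68-fold higher in Srf KO, and the authors' deposited table gave a log2 fold of 0.74 with an implied standard error of 0.19. It made up 28.2% of the cysteine cathepsin FPKM in Srf KO and 20.1% in WT. Ctsc, for cathepsin C, had 36.4 FPKM in Srf KO and 26.5 FPKM in WT, a log2 fold of 0.46 with an implied standard error of 0.19. Its adjusted p in the authors' deposited gene table, 0.0466, was just inside the threshold, and in the isoform table, at 0.0574, the same gene was not called.

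Ctsb and Ctsl came close to a call without reaching it. Ctsb, for the endopeptidase and carboxydipeptidase cathepsin B, had 87.5 FPKM in Srf KO and 65.3 FPKM in WT, with an adjusted p of 0.0691 in the authors' deposited table. Ctsl, for the endopeptidase cathepsin L, had 10.1 FPKM in Srf KO and 7.30 FPKM in WT, with an adjusted p of 0.0787 there. Their log2 folds of 0.42 and 0.48 were about as large as that of Ctsc, so the call does not set these genes apart in size.

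The other cysteine members lay close to 0 on the log2 scale. Ctsh, for the aminopeptidase cathepsin H, had 107 FPKM in Srf KO and 121 FPKM in WT (log2 fold -0.18). Ctsz, for the carboxypeptidase cathepsin Z, had 73.6 FPKM in Srf KO and 74.1 FPKM in WT (log2 fold -0.01). Ctsk, for cathepsin K, the collagen-cutting enzyme of osteoclasts, was the least abundant member, with 1.21 FPKM in Srf KO and 1.09 FPKM in WT. It sits 17.4 kb before Ctss on the same strand of chromosome 3, next to the member with the highest fold.

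In the deposited table (mm10) Ctsb lies at chr14:63122462-63177793, a locus it shares with Fdft1, and Ctsz at chr2:174415804-174438992, shared with Th1l. Fdft1 had 9.15 FPKM in Srf KO and 6.58 FPKM in WT, Th1l had 14.2 FPKM in Srf KO and 16.9 FPKM in WT, and neither was called. Ctsc lies at chr7:88278093-88310875, Ctsh at chr9:90054267-90076095, Ctsl at chr13:64363214-64370306, Ctsk at chr3:95499286-95509362 and Ctss at chr3:95526786-95556403, each with no other gene of the table at its locus. GENCODE M21 does place further gene models over some of them. On the other strand lie Gm47123, over 1971 bases of Ctsl, and Gm26522, over 4743 bases of Ctsc. On the same strand lie Gm49230, over 395 bases of Ctsl, and Hmgb1-ps5, over 557 bases of Ctss. The reads have no strand, so strand separates none of these. The overlaps are of whole gene spans, introns included, and whether reads were shared was not tested. The locus of Ctsa, chr2:164830730-164857708, also holds Neurl2 and Pltp.

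By these levels the make-up of the cathepsin transcripts differed. The 10 genes summed to 760 FPKM in Srf KO and 1317 FPKM in WT, 1.73-fold lower in Srf KO. The cysteine genes made up 58.0% of the sum in Srf KO and 28.1% in WT, and the aspartic genes 39.4% in Srf KO and 69.7% in WT. Ctse took 1.82% in Srf KO and 15.1% in WT, and Ctss took 16.4% in Srf KO and 5.64% in WT. In the order of levels Ctse was at place 8 of the family in Srf KO and at place 2 in WT, while Ctss was at place 2 in Srf KO and at place 4 in WT. Ctsd kept first place, Ctsh the third, Ctsz the fifth, Ctsa the seventh, Ctsl the ninth and Ctsk the last in both genotypes. With 1 pooled value per genotype, it cannot be said which neighbours in this order differ beyond their spread.

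**Figure D4:**
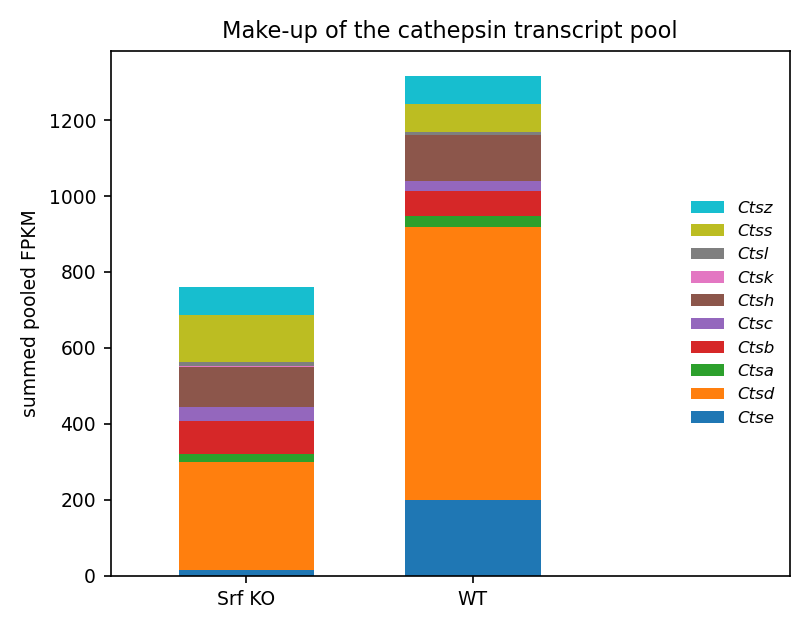
Summed pooled FPKM of the 10 cathepsin genes in Srf KO and WT neutrophils, stacked by gene. The stack reaches 760 FPKM in Srf KO and 1317 FPKM in WT, and the Ctse and Ctsd segments at its base account for 299 FPKM in Srf KO and 918 FPKM in WT.

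The inhibitors of cysteine cathepsins were higher in Srf KO for most of the list. Of 12 tested inhibitor genes, 10 were called higher and 0 lower, where 17.7% of all tested genes were called higher and 17.8% lower. Their median log2 fold was 2.08, and the median of all tested genes was 0.08. Stfa3, a stefin A gene, had 358 FPKM in Srf KO and 54.2 FPKM in WT, and Stfa2l1, the most abundant of them, had 1043 FPKM in Srf KO and 496 FPKM in WT. BC117090, another stefin A gene, had 82.8 FPKM in Srf KO and 13.7 FPKM in WT. Stefin A genes are near-identical copies, as are Ctla2a and Ctla2b, so the split of reads among them is uncertain. These copies make up most of the inhibitors called higher, so the count does not stand for that many independent genes. Serpina3g, a serpin known to inhibit cathepsins, had 11.5 FPKM in Srf KO and 1.73 FPKM in WT. The 2 inhibitors that were not called were Cst3, the secreted cystatin C, with 433 FPKM in Srf KO and 471 FPKM in WT, and Cstb, cystatin B, with 70.7 FPKM in Srf KO and 57.3 FPKM in WT; they were named after their values were seen.

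Of the 6 genes for serine protease precursors that cathepsin C trims, 3 were called higher in Srf KO and 0 lower, with a median log2 fold of 0.87. The shares over all tested genes were 17.7% called higher and 17.8% called lower. Ctsg, for cathepsin G of neutrophil granules, had 220 FPKM in Srf KO and 101 FPKM in WT. The other called genes were granzymes of cytotoxic lymphocytes: Gzma had 13.9 FPKM in Srf KO and 2.70 FPKM in WT, and Gzmb had 2.51 FPKM in Srf KO and 0.482 FPKM in WT. Elane, for neutrophil elastase, had 196 FPKM in Srf KO and 129 FPKM in WT, but its implied standard error in the authors' deposited table was 1.27 on the log2 scale and it was not called. The other uncalled genes of this list had larger implied standard errors, 1.70 and 5.26, so the list's median rests partly on loosely measured folds.

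Among 12 tested genes for the sorting and maturation of lysosomal enzymes, 5 were called lower, 1 higher and 6 were not called, with a median log2 fold of -0.25. Over all tested genes, 17.8% were called lower and 17.7% higher. Sorl1, a sorting receptor, had 45.4 FPKM in Srf KO and 223 FPKM in WT. Tfeb, the regulator of lysosomal genes, had 9.86 FPKM in Srf KO and 20.6 FPKM in WT, and its relative Mitf had 1.21 FPKM in Srf KO and 2.33 FPKM in WT. Tfe3, a further relative, had 30.3 FPKM in Srf KO and 38.6 FPKM in WT and was not called. Lgmn, for legumain, which processes cathepsin precursors, was the gene called higher, with 11.6 FPKM in Srf KO and 4.74 FPKM in WT.

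Of 18 other lysosomal hydrolases, 4 were called lower, 2 higher and 12 were not called, at a median log2 fold of -0.26. The shares over all tested genes were 17.8% called lower and 17.7% called higher. Man2b1, a lysosomal mannosidase, had 63.7 FPKM in Srf KO and 140 FPKM in WT. Hexa, a lysosomal glycosidase gene, was also called lower, with 71.6 FPKM in Srf KO and 137 FPKM in WT. Arsb, for the lysosomal sulfatase arylsulfatase B, was called higher, with 21.7 FPKM in Srf KO and 14.9 FPKM in WT. The pepsin-family relatives of the aspartic pair gave no call in 2 tested genes, and Napsa, for napsin A, had 85.0 FPKM in Srf KO and 99.3 FPKM in WT. Of 11 papain-family cathepsins outside the 10 members, 7 were listed at 0 in both genotypes, and 3 of the 4 tested were called higher. Ctsw, a cathepsin of cytotoxic lymphocytes, had 4.34 FPKM in Srf KO and 1.70 FPKM in WT. Its log2 fold of 1.35 was above that of Ctss.

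**Figure D5:**
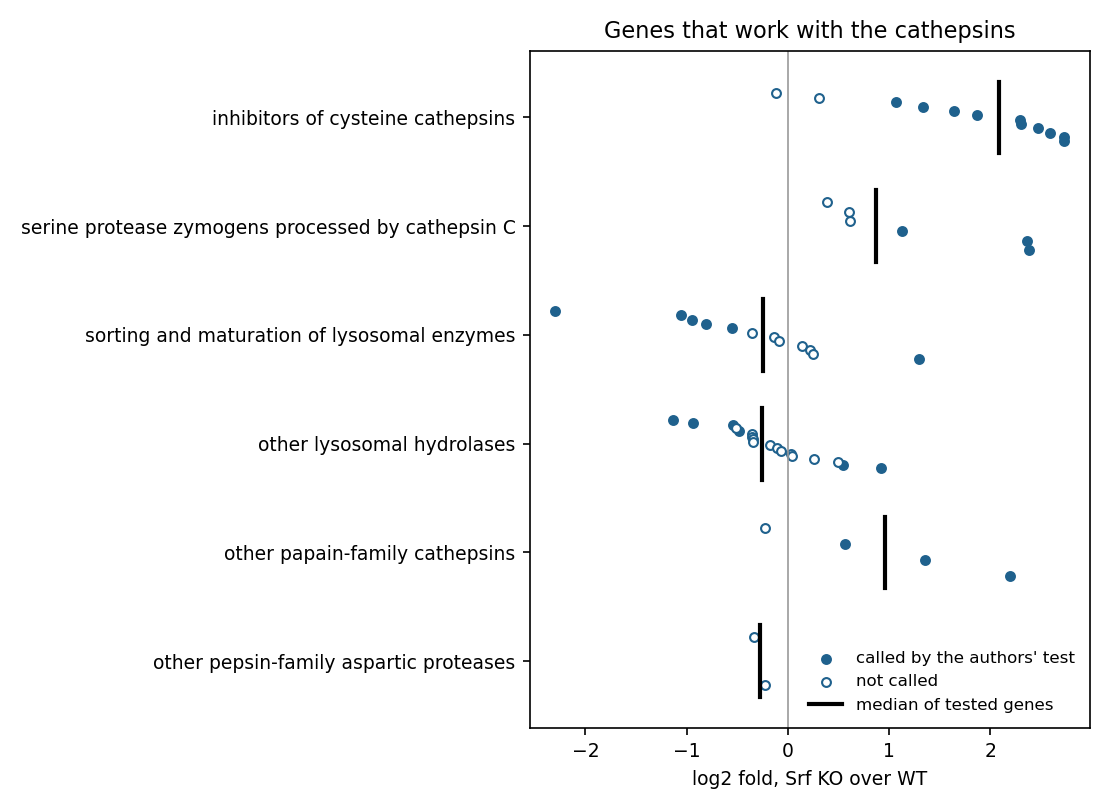
Log2 fold, Srf KO over WT, of each tested gene in 6 lists of genes related to the cathepsins; filled points were called by the authors' test, open points were not, and the vertical bar is the median of the list's tested genes. The inhibitors have a median of 2.08, with 10 of 12 called higher, where 17.7% of all tested genes were. The other lysosomal hydrolases straddle 0 with a median of -0.26.

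Markers of other cell types were mostly called higher in Srf KO, where 17.7% of all tested genes were called higher. Genes of B and antigen-presenting cells, the cells best known for Ctss, summed to 377 FPKM in Srf KO and 214 FPKM in WT, with 11 of 18 called higher and 0 lower. H2-Aa, an MHC class II chain, had 78.4 FPKM in Srf KO and 34.2 FPKM in WT. Macrophage and monocyte markers summed to 245 FPKM in Srf KO and 220 FPKM in WT. Of these, 13 of 16 tested were called higher and 3 lower, with a median log2 fold of 1.18. Among the 13 called higher, Spic had 8.08 FPKM in Srf KO and 1.65 FPKM in WT. Cd163, also among them, had 3.28 FPKM in Srf KO and 0.983 FPKM in WT. One of the 3 called lower was Cd68, a lysosomal membrane protein, at 33.9 FPKM in Srf KO and 64.6 FPKM in WT. T and NK cell markers, beside which Gzma, Gzmb and Ctsw stand, summed to 111 FPKM in Srf KO and 49.3 FPKM in WT, with 12 of 13 called higher.

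Markers of other blood lineages were also mostly called higher. The counts were 10 of 13 erythroid genes, 8 of 12 megakaryocyte and platelet genes and 9 of 10 tested genes of eosinophils, basophils and mast cells, with 0 called lower in each list. Gp6 of platelets was listed at 0 in WT and at 0.253 FPKM in Srf KO. Mcpt4 of mast cells was listed at 0 in WT and at 0.0254 FPKM in Srf KO, and was not tested. Osteoclast genes, the setting in which Ctsk is best known, had 0 called higher and 1 lower of 4 tested. Calcr, not tested, was listed at 0 in WT and at 0.00306 FPKM in Srf KO. Of 6 tested neutrophil markers 5 were called lower, where 17.8% of all tested genes were. Among the 5 were Csf3r, the G-CSF receptor, with 248 FPKM in Srf KO and 687 FPKM in WT, and Cxcr2, a chemokine receptor, with 201 FPKM in Srf KO and 596 FPKM in WT. The log2 folds of the 6 ran from -1.57 to -0.54. That of Ctse was -3.85, but Ctse was chosen by this contrast, so its place below them is a description and no test. The part of these cell types in the values of the cathepsin genes was not tested.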

How the data were processed

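RNA of 4 samples, 2 Srf KO and 2 WT, was made into TruSeq RNA v2 libraries, per the labels' protocols; reads from this kit carry no strand. CASAVA 1.8.1, TopHat2 2.0.0, Cufflinks 2.0.0 and mm10 come from the submitters' processing notes, which give no settings. The authors deposited tables of genes, isoforms, TSS groups and coding sequences with 1 FPKM value per genotype, a log2 fold that runs WT over KO per the file headers, a test statistic (a score), a p-value and its adjusted p-value. Its sign was reversed, so folds here are Srf KO over WT. In the 4 tables, the deposited log2 fold differed from that of the FPKM values by at most 0.00427, the p-value matched a two-sided normal tail to within 2.76e-06, and the adjusted p-value its Benjamini-Hochberg adjustment over tested rows to within 1.57e-06. Every p-value quoted is the authors' own. Calls under the 1 FPKM filter, centring and the length adjustment were remade here. They used the fold over the implied standard error, with a Benjamini-Hochberg adjustment. The tables hold no per-sample values, so the planned limma fit on samples was not run, no depth or replicate error was available, and leaving out each replicate was not possible.

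The cathepsin genes and the 14 other gene lists were chosen with earlier results of these data known. Named genes were the 10 members, Srf, from each list up to 4 called genes of largest fold at 1 FPKM or more plus the most abundant tested gene, and the 3 genes nearest to Ctse; of these, those that bear on the cathepsins are given, and 1 gene that the rule picked is not reported here. Neu1, Glb1, Cst3, Cstb, Tfe3, Gp6, Mcpt4 and Calcr stand outside this rule. Gene loci come from the deposited table, with starts counted from 1; exons, sequences and identity come from GENCODE M21 and promoters from RefSeq. Transcript length, known for 98.1% of tested genes with a fold, was used in an alternative that subtracts the running median fold over 50 length bins smoothed over 5. The other alternatives were thresholds, a fold minimum, a 1 FPKM filter, pseudocounts of 1 and 0.1, centring, other tables and leaving out Ctse. The work used biopython 1.88, scipy 1.17.1, pandas 2.3.3, numpy 2.4.6 and Python 3.11.15, and the computations were tested on simulated data.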

Additional observations from a re-analysis of the deposited data

How the results depend on the processing

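The count of cathepsin genes called lower in Srf KO was 2, Ctse and Ctsd, and was 2 or 3 under all 6 alternatives, with Ctsa added at a threshold of 0.10, after centring and after the length adjustment. The count called higher was less stable: 2 as deposited, 1 at a threshold of 0.01 and 1 after centring (Ctss in both), 4 at a threshold of 0.10 (Ctsb, Ctsc, Ctsl and Ctss), and 0 with a minimum of 2-fold. After the length adjustment it was 2, but Ctsb took the place of Ctsc. Calls after centring, after the length adjustment and under the 1 FPKM filter were remade here and are not the authors'. The cause of these shifts beyond the settings themselves was not tested. The median log2 fold of the members was 0.08 and became -0.19 after the length adjustment, under which Ctss had 0.47, Ctsh -0.43 and Ctsz -0.27. The log2 fold of Ctse lay between -4.02 and -3.76 under every alternative run. With all 10 members as the denominator, the share of Ctse was 1.82% in Srf KO and 15.1% in WT. No paired analysis was possible because the tables hold 1 pooled value per genotype, and leaving out a replicate was not run for the same reason. Depth is unknown, so how far low levels such as that of Ctsk are limited by it cannot be given.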
